A study of Homo sapiens with 2 samples.

Results

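The 10 genes described here are the ligands WNT5A, WNT5B, WNT7A and WNT7B, the receptors FZD2 and FZD7, the inhibitor DKK1, the effector CTNNB1 (β-catenin), the transcription factor LEF1 and the feedback gene AXIN2. They are 10 of 19775 genes with a symbol of their own on the array, and all 23 probe sets annotated to them, of 54613 that are not controls, were read. The cells were A549, an established line from a human lung carcinoma. They were kept for 12 h either with TGF-β at 1 ng/ml or without it, and no other agent or genotype separated the groups. Total RNA of each condition was hybridized to 1 Affymetrix array, so there was 1 TGF-β array and 1 control array, no difference below has a replicate check, and no p-value or error between cultures can be given. The question for these genes is which parts of the WNT pathway differed in RNA level after TGF-β.

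WNT proteins are secreted, lipid-modified ligands that signal over short distances. In the β-catenin branch a WNT binds a Frizzled receptor together with LRP5 or LRP6, the complex of AXIN, APC and GSK3B that marks β-catenin for destruction is switched off, and β-catenin enters the nucleus, where it acts with TCF/LEF factors on genes such as AXIN2. Other WNT signals run through Frizzleds and ROR or RYK receptors to the planar polarity and calcium branches without β-catenin, and DKK1 blocks the β-catenin branch by binding LRP5 and LRP6. In the lung WNT signals are known for their part in the growth of the branching airways, mainly from work in mice, and TGF-β is known for turning epithelial cells of the lung toward matrix production and a mesenchymal shape.

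Signals are the MAS5 intensities deposited by the authors, on a linear scale, and both arrays had a mean of 500 after trimming. Precision is limited by the number of arrays. The background level of an array is the highest of its 27 control probe sets for Bacillus subtilis, 56.6 on the TGF-β array and 45.8 on the control array. Where only the dimmer signal was at background, the fold was taken against that level and is written as a lower bound (at least so many fold), and where both were at background no fold is given. Probe sets were kept from a mean signal over both arrays of 48.7 upward, which is the median of that mean, and the brightest kept probe set stands for its gene. Genes that differed by 2-fold or more are called higher or lower, a threshold on size with no test behind it. A call uses the ratio of the deposited signals, so a gene with 1 signal at background can be called although its bound is under 2-fold.

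The promoters of these genes were read first, since TGF-β acts through SMAD proteins and WNT through TCF/LEF factors, and both bind short DNA words. RefSeq promoter sequences of the assembly GRCh38.p14 were at hand for 6 of the 10 genes, with 8 start sites among them. In the 250 bases before each start, on both strands, 3 of the 8 promoters held the SMAD box CAGAC, against 38.0% of 35116 promoters of all genes. The TCF/LEF core CTTTGA or CTTTGT was in 1 of the 8, against 22.8% of all promoters, and 5 of the 8 held none of these words. So few promoters cannot set these genes apart from others, and AXIN2 was not among the genes with a sequence. The 3 promoters with a match are shown because their genes are the effector, the secreted inhibitor and the ligand among the 10 that was called higher, each 5′ to 3′ on the strand of the gene, with the matches in capitals.
CTNNB1, chr3:41199255-41199504, plus strand: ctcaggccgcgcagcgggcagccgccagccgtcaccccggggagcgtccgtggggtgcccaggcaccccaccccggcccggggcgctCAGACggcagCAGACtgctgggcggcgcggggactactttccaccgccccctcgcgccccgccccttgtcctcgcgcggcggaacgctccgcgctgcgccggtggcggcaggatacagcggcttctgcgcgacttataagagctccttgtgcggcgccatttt
DKK1, chr10:52314031-52314280, plus strand: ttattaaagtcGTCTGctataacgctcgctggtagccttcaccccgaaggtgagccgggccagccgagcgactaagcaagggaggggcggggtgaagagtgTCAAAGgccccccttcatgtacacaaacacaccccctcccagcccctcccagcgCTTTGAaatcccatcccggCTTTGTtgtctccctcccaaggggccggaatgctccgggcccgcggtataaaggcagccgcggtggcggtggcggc
WNT5B, chr12:1628981-1629230, plus strand: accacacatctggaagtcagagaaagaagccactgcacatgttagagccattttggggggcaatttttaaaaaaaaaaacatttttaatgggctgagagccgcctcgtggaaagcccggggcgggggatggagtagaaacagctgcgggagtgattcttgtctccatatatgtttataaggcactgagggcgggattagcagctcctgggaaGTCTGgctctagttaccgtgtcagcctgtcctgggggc
In the CTNNB1 promoter both capital words are the SMAD box, at 163 to 159 and 153 to 149 bases before the start. The DKK1 promoter held the SMAD box on the other strand, 239 to 235 bases before the start, and 3 TCF/LEF cores, at 149 to 144, 95 to 90 and 76 to 71 bases. The WNT5B promoter is that of 1 of the 2 annotated starts of the gene, and its SMAD box lay 38 to 34 bases before the start on the other strand. The CTTTGA core was in 11.2% and the CTTTGT core in 13.7% of all promoters, so each word is common, and a match here is a stretch of letters and not a measured binding site.

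**Figure D1:**
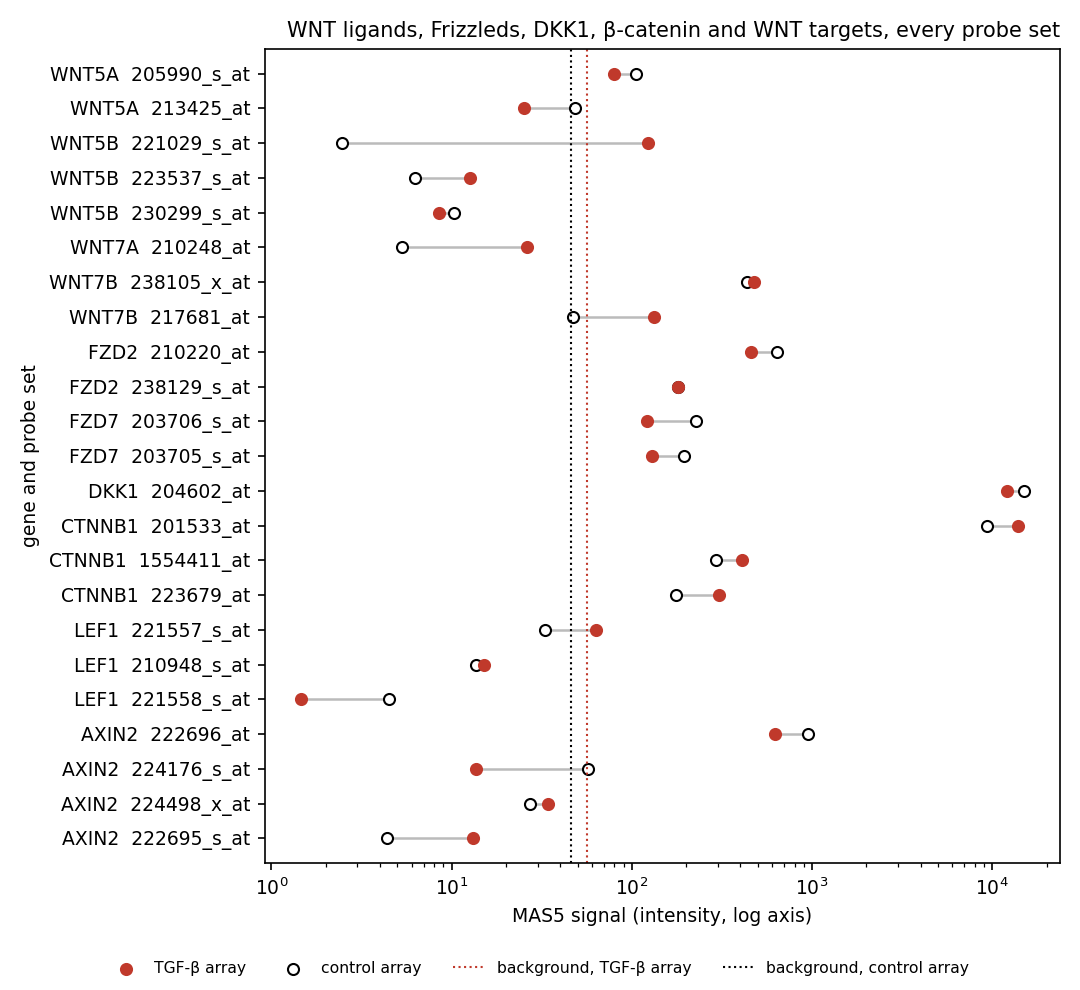
Signals of all 23 probe sets of the 10 WNT genes, as MAS5 intensities on a log axis, with the TGF-β array as red points and the control array as open points. Dotted lines mark the background levels of 56.6 on the TGF-β array and 45.8 on the control array. CTNNB1 was higher on the TGF-β array in each of its 3 probe sets, FZD7 lower in both of its probe sets, and 7 probe sets of WNT5B, WNT7A, LEF1 and AXIN2 lay below background on both arrays.

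Of the 10 genes, 7 had at least 1 probe set above background on both arrays: WNT5A, WNT7B, FZD2, FZD7, DKK1, CTNNB1 and AXIN2. Among the 23 probe sets, 12 were above background on both arrays, 4 on 1 array and 7 on neither. Of the 12, 5 were higher with TGF-β, 6 were lower and 1 had a log2 fold change of 0.00, and 1 of them, for WNT7B, passed 2-fold. By brightest kept probe set, 8 of the 10 genes were measured, 1 was called higher (WNT5B), 0 were called lower and 7 differed by less than 2-fold. Over all 12375 measured genes, 3.94% were called higher and 2.96% were called lower. WNT5B passed the filter only through its TGF-β signal, so its call is no measure of how often these genes differ. The median log2 fold change of the 8 genes was -0.35, and over all genes it was -0.03.

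Among the ligands, WNT5B read 123 on the TGF-β array in its brightest probe set and 2.47 on the control array, which is below background. The ligand, which belongs with WNT5A to the group best known for signalling without β-catenin, was thus at least 2.69-fold higher with TGF-β. Its other 2 probe sets read 12.7 and 8.53 with TGF-β, against 6.27 and 10.3 in the control, all at background. The signal above background therefore rested on 1 of 3 probe sets and on 1 array. All 3 carry names that mark probes shared with other transcripts. The ratio of the deposited WNT5B signals has a log2 value of 5.64, but only the bound carries a size. The spread set beside it was 2.09, which cannot be read as the spread at its brightness. The same 2.09 was obtained for WNT7A, at 26.1 with TGF-β and 5.30 in the control. It was also obtained for a LEF1 probe set at 1.46 with TGF-β and 4.47 in the control. No conclusion is therefore drawn from the WNT5B change over its spread.

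WNT5A, the closest relative of WNT5B, read 80.0 with TGF-β and 105 in the control. Its log2 fold change was -0.40, 1.32-fold lower, and probe sets of that brightness had a spread of 0.53. The name of this probe set also marks probes shared with other transcripts. The other WNT5A probe set read 25.3 on the TGF-β array, at background, and 48.6 on the control array, just above it, and allows no fold. So the WNT5A probe set that could be read was lower with TGF-β, while the WNT5B probe set that could be read was higher. The difference between these ligands was not tested, since each condition had 1 array.

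WNT7B, known from mice as a ligand made by the lung epithelium, had 2 probe sets that did not give the same size of difference. The brighter one read 478 with TGF-β and 437 in the control, a log2 fold change of 0.13, and 30.7% of all genes had a larger value. The dimmer one read 132 with TGF-β and 46.9 in the control, 2.82-fold higher, with the control signal just above the background of 45.8. The brighter probe set carries a name that marks probes shared with other transcripts and the dimmer one does not. Both were higher with TGF-β, and whether the gene passed 2-fold depended on the probe set. Among the 3122 genes with exactly 2 probe sets above background on both arrays, 28.2% had both higher and 38.3% both lower. A shared direction was thus common. WNT7A, its relative, was measured by 1 probe set, which read 26.1 with TGF-β and 5.30 in the control, both at background, so no difference in WNT7A was detectable.

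The Frizzleds are the receptors that bind WNTs directly. FZD7 read 122 and 130 with TGF-β in its 2 probe sets, against 226 and 195 in the control. These are 1.85-fold and 1.50-fold lower, with log2 values of -0.89 and -0.58, and the first of them was the largest fall by ratio among the 12 probe sets above background on both arrays. Both probe sets were lower in 38.3% of the 3122 genes with exactly 2 above background on both arrays, so this agreement was common. Of all genes, 3.98% had a lower log2 fold change than FZD7, whose change was 1.97 times the spread of 0.45 at its brightness. The names of both FZD7 probe sets mark probes shared with other transcripts. FZD2 read 457 with TGF-β and 637 in the control in its brighter probe set, 1.40-fold lower. Its dimmer probe set read 181 on the TGF-β array and 181 on the control array. The FZD2 difference was therefore present in 1 of its 2 probe sets, and 12.3% of all genes had a lower log2 fold change than the brighter one.

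DKK1, the secreted inhibitor of LRP5 and LRP6 and itself a known target of β-catenin, was measured by 1 probe set. It read 12060 with TGF-β and 14928 in the control, so that 80.8% of the control signal remained. The log2 fold change of DKK1 was -0.31, which is 1.24-fold lower and 2.02 times the spread of 0.15 among probe sets of like brightness. Of all genes, 21.7% had a lower log2 fold change than DKK1. The signal was far above background on both arrays.

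CTNNB1, which encodes β-catenin, the transcriptional coactivator of the pathway and a link between cadherins and actin, was higher with TGF-β in all 3 of its probe sets. They read 13833, 408 and 305 on the TGF-β array, against 9385, 292 and 176 on the control array. The differences were 1.47-fold, 1.40-fold and 1.73-fold, none of them at 2-fold. All of a gene's probe sets were higher in 21.9% of the 2488 genes with 3 or more probe sets above background on both arrays, and all were lower in 23.0%, so a shared direction of this kind was common. Probe sets of 1 gene read the same RNA and are not replicates. By its brightest probe set CTNNB1 had a log2 fold change of 0.56, which is 3.38 times the spread of 0.17 at that brightness, and 9.63% of all genes had a larger value. The arrays measure RNA, so neither the amount nor the place of the β-catenin protein was read.

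LEF1, a partner of β-catenin on DNA, was at or near background. Its brightest probe set read 63.7 on the TGF-β array, just above background, and 33.2 on the control array, which is at least 1.39-fold higher. The other 2 read 15.1 and 1.46 with TGF-β, against 13.6 and 4.47 in the control. All of these lay under the background level. The mean of the brightest pair fell short of the level set for dim signals, so LEF1 was not among the measured genes.

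AXIN2, a scaffold of the destruction complex and feedback inhibitor of WNT signalling that is widely used as a readout of β-catenin activity, read 620 with TGF-β and 948 in the control by its brightest probe set. That is 65.5% of the control signal, 1.53-fold lower, or -0.61 on the log2 scale. The AXIN2 change was 2.09 times the spread of 0.29 at its brightness, and 8.44% of all genes had a lower value. A second AXIN2 probe set read 13.6 with TGF-β, at background, and 57.5 in the control, at least 1.02-fold lower. The remaining 2 read 34.1 and 13.2 with TGF-β, against 27.2 and 4.38 in the control, all under background. CTNNB1 RNA was thus higher and AXIN2 RNA lower on the same TGF-β array, both by less than 2-fold.

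**Figure D2:**
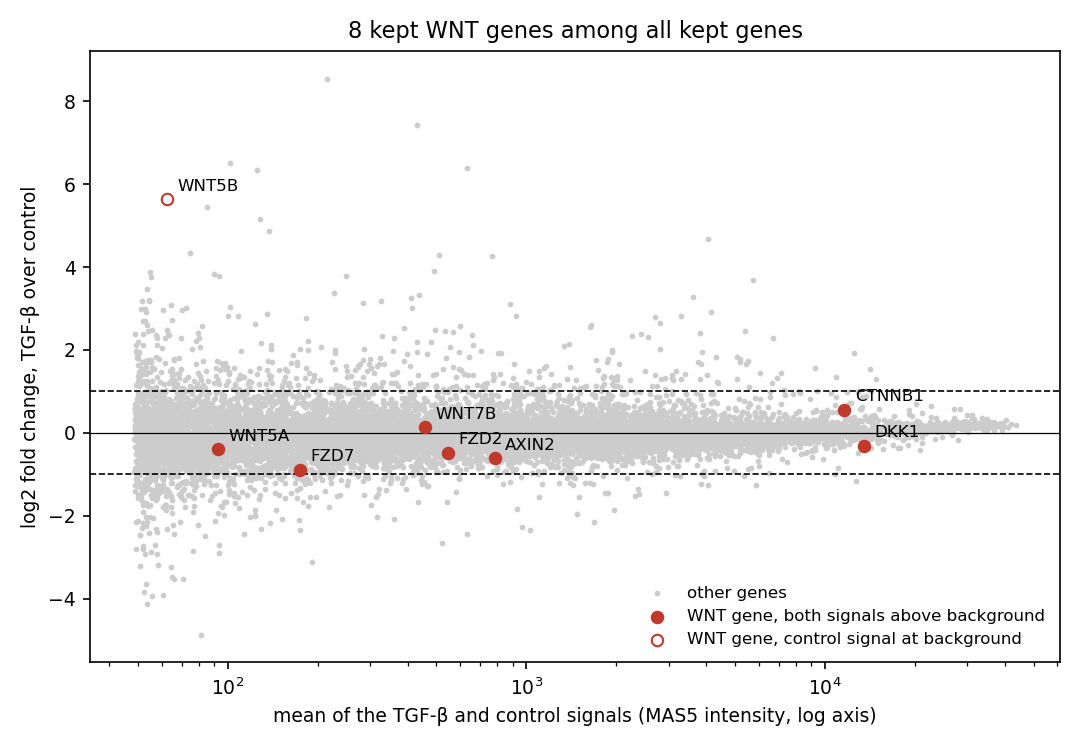
Log2 fold change, TGF-β over control, of the 12375 measured genes (grey) against the mean of their TGF-β and control signals on a log axis, with the 8 measured WNT genes in red and dashed lines at 2-fold. FZD7, AXIN2, FZD2, WNT5A and DKK1 lie below 0, CTNNB1 and WNT7B above it, and WNT5B, drawn open because its control signal was at background, lies above the 2-fold line at a value that is no measured size.

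With RNA from bulk cells, fewer cells that make an RNA and less of it per cell cannot be told apart. The labelled cell type was checked against marker genes. All 5 epithelial markers were above background on both arrays, with summed signals of 61332 with TGF-β and 56247 in the control. KRT18 and KRT8 dominated the sum and were higher, at 38248 and 19630 with TGF-β and 33810 and 16817 in the control. EPCAM, at 1616 with TGF-β and 2176 in the control, was lower. KRT19, at 991 with TGF-β and 1492 in the control, was lower too. CDH1 was the only marker of the 5 that was called, and it was lower. Of 6 fibroblast markers, 0 were above background on the TGF-β array and 1 on the control array, and PDGFRA, PDGFRB, LUM, COL1A2 and COL3A1 were at background on both. The endothelial markers VWF, CDH5, KDR and TEK were at background on both arrays, and PECAM1 was just above it, at 65.4 with TGF-β and 56.4 in the control. Summed over the 5 endothelial markers the signal was 121 with TGF-β and 93.2 in the control. Of 3 immune markers PTPRC was at background on both arrays, while CD3E read 74.8 with TGF-β and 48.8 in the control and CD14 read 63.0 with TGF-β and 190 in the control, 3.02-fold lower. The immune markers summed to 159 with TGF-β and 261 in the control, and what part such cells or signals had in the WNT values was not tested. Of 5 alveolar markers 3 were above background, and SFTPD and NKX2-1 were not. Of 8 genes known for a response to TGF-β, 5 were called higher (62.5%), beside 3.94% over all genes. Among them were the feedback inhibitor SMAD7, at 1620 with TGF-β and 786 in the control, and SKIL, at 10442 with TGF-β and 3841 in the control. COL1A1 and CCN2 (CTGF) were also among the 5, and both stand in the study's list of strongly changed genes from these arrays. Their calls are therefore not independent evidence. ID1 was 1.18-fold lower, and TGFBI and ID3 were higher by less than 2-fold.

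To place the 10 genes, the rest of the pathway was read through lists of its parts, 146 genes in all, of which 99 were measured. Of these, 7 were called higher (7.07%), 5 were called lower (5.05%) and 87 were neither, beside 3.94% higher and 2.96% lower over all genes. The lower calls numbered 2 after an offset of 50, scaling to equal medians or loess. The 12 calls included 10 in which both signals were above background, and WNT5B was the only one that belongs to the 10 genes. Of the calls, 58.3% were higher, and this share was 77.8% after scaling to equal medians or by loess and 70.0% after quantile normalization, when fewer genes were called lower and 7 were still called higher. Over all genes the share was 57.1%, and 63.3% after scaling to equal medians, 63.6% by loess and 59.9% after quantile normalization. The median log2 fold change over the 99 genes was 0.08, while that of all genes was -0.03. With 1 array per condition these counts describe the lists and do not set them apart from other genes.

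**Figure D3:**
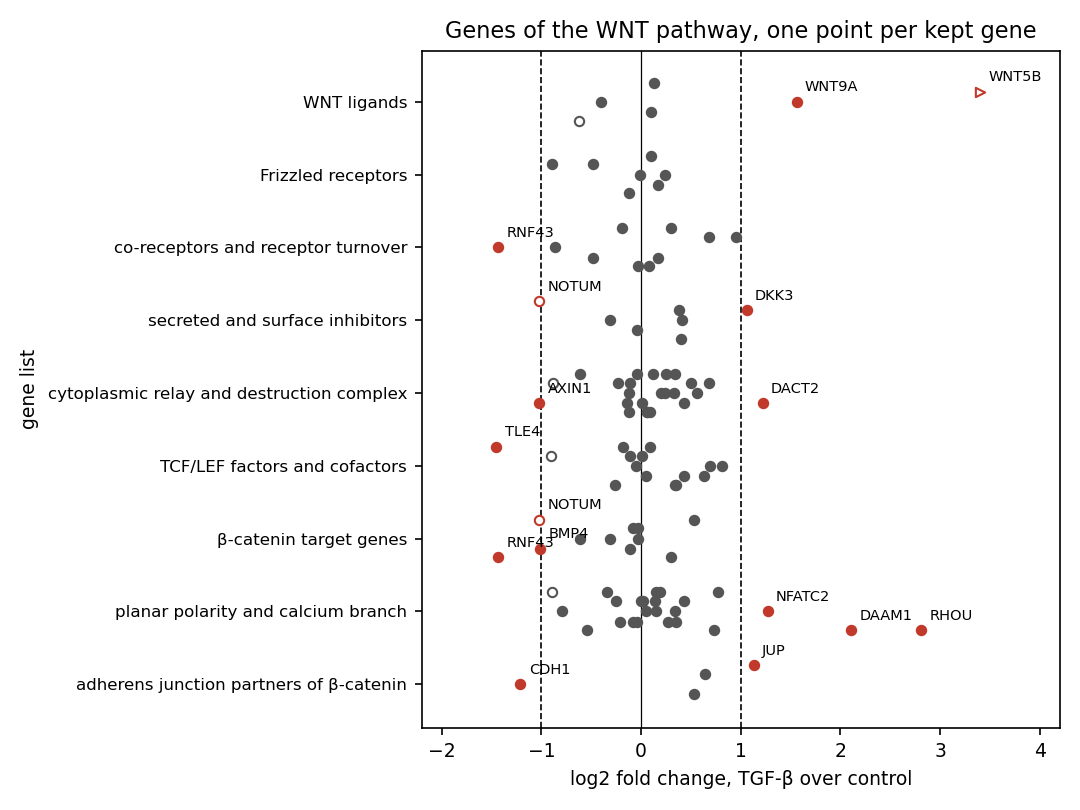
Log2 fold change, TGF-β over control, of each measured gene in 8 parts of the WNT pathway and among the adherens junction partners of β-catenin, with dashed lines at 2-fold. Red marks genes called higher or lower, open symbols rest on a signal at background, and the triangle for WNT5B stands for a log2 value of 5.64 past the end of the axis. Most genes of each part of the pathway lie between the dashed lines, and the target genes hold 3 calls on the lower side and 0 on the higher side.

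Among the 6 measured ligands, 2 were called higher (33.3%), WNT5B and WNT9A, and 0 lower, beside 3.94% higher and 2.96% lower over all genes. WNT5B was measured only through its TGF-β signal, so the count is no measure of how often ligands differ. WNT9A read 450 with TGF-β and 153 in the control in 1 probe set, 2.94-fold higher, while its other probe set was at background on both arrays. WNT6 read 166 with TGF-β and 156 in the control. WLS, the carrier that brings WNTs to the cell surface, read 290 with TGF-β and 382 in the control. None of the 7 measured Frizzleds passed 2-fold, and FZD7 had the largest change among them. FZD6 read 1402 with TGF-β and 1189 in the control, and FZD5 1467 with TGF-β and 1593 in the control by its brightest probe set.

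Among 10 co-receptors and regulators of receptor turnover, RNF43 alone was called, at 314 with TGF-β and 848 in the control, 2.70-fold lower. RNF43 is a ligase that removes Frizzleds from the cell surface and is itself a known β-catenin target. LGR4, which binds R-spondins and so restrains that ligase, read 4006 with TGF-β and 7275 in the control, 1.82-fold lower. ZNRF3, the relative of RNF43, read 775 with TGF-β and 790 in the control, and LRP6, the partner that DKK1 blocks, 2614 with TGF-β and 2984 in the control. ROR1, a receptor for WNT5A, read 1325 with TGF-β and 686 in the control, 1.93-fold higher in its brightest probe set, and a dimmer one read 94.0 with TGF-β and 109 in the control. Of 7 secreted or surface inhibitors, 1 was called higher (14.3%) and 1 lower (14.3%), beside 3.94% higher and 2.96% lower over all genes. DKK3 was the higher one, at 573 with TGF-β and 275 in the control. Its other 2 probe sets above background were 2.03-fold and 1.41-fold higher. The lower one was NOTUM, which strips the lipid from WNTs. NOTUM read 49.9 with TGF-β, at background, and 102 in the control, at least 1.79-fold lower. DKK1 and DKK3, which share a family name, thus lay on opposite sides of 0 on these arrays.

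In the cytoplasm, AXIN1, a relative of AXIN2 and like it a scaffold of the destruction complex, read 110 with TGF-β and 223 in the control. That is 2.02-fold lower, and AXIN1 was no longer past 2-fold with the offset, equal medians or loess. DACT2, which binds Dishevelled proteins, read 463 with TGF-β and 198 in the control, 2.34-fold higher, and 22 of the 24 measured genes of this group were neither. The share called was 4.17% higher and 4.17% lower, near the 3.94% higher and 2.96% lower over all genes. Among 15 TCF/LEF factors and cofactors the corepressor TLE4 was the only one called, so 6.67% were lower and 0 higher. TLE4 read 87.3 with TGF-β and 239 in the control, 2.73-fold lower, in 1 of its 5 probe sets, the others being at background. TCF7L2, which binds the same DNA word as LEF1, read 5597 with TGF-β and 4380 in the control, and all 6 of its probe sets above background were higher, by 1.28-fold in the brightest to 2.07-fold. TCF7L2 was thus far above background on both arrays, which LEF1 was not.

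Of 11 measured target genes of β-catenin, 3 were called lower (27.3%) and 0 higher, beside 2.96% lower and 3.94% higher over all genes. They were RNF43, NOTUM and BMP4, a secreted growth factor, at 94.6 with TGF-β and 190 in the control. NOTUM was called on a TGF-β signal at background, and its bound of 1.79-fold is under 2-fold. By any amount 2 of the 11 were higher and 9 lower, AXIN2 and DKK1 among the lower ones, and the median log2 fold change was -0.11. Of the lower ones, MYC and ZNRF3 (both -0.03), BAMBI (-0.08) and NKD2 (-0.11) were close to 0 and inside the spread at their brightness. The higher ones were CCND1, the cell-cycle cyclin D1, at 9669 with TGF-β and 6682 in the control, and CD44, a hyaluronan receptor, at 7670 with TGF-β and 6211 in the control. RNF43 and NOTUM are counted in more than 1 list, and the calls of NOTUM and BMP4 did not hold under every scaling. The counts also depend on the filter, which left out dim targets of either direction. NKD1 read 72.5 with TGF-β and 9.86 in the control, and LEF1 63.7 with TGF-β and 33.2 in the control, both controls at background. ASCL2 read 2.72 with TGF-β and 49.5 in the control, and APCDD1 28.2 with TGF-β and 47.0 in the control, both TGF-β signals at background. The median of the target genes is read beside -0.03 over all genes, which is itself below 0.

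The branches without β-catenin held 3 higher and 0 lower calls among 24 measured genes, 12.5% higher, beside 3.94% higher and 2.96% lower over all genes. RHOU, a small GTPase induced by WNT1 in mouse cells, read 5779 with TGF-β and 822 in the control, 7.03-fold higher. DAAM1, a formin that binds Dishevelled, read 1076 with TGF-β and 250 in the control, 4.31-fold higher. NFATC2, a transcription factor switched on by calcium, read 115 with TGF-β and 47.8 in the control, 2.41-fold higher, with a control signal just above background. RHOU and DAAM1 stand in the list of strongly changed genes that the study drew from these arrays, so their calls are not independent evidence of a direction.

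β-Catenin also ties cadherins to the actin cytoskeleton, and 4 of its partners at adherens junctions were measured. CDH1, E-cadherin, read 846 with TGF-β and 1952 in the control, 2.31-fold lower, while CDH2, N-cadherin, read 4418 with TGF-β and 2843 in the control, 1.55-fold higher, with the same fold in its other probe set. JUP, the plakoglobin that resembles β-catenin, read 1698 with TGF-β and 774 in the control, 2.19-fold higher. CTNNA1, α-catenin, read 11057 with TGF-β and 7652 in the control, 1.45-fold higher, close to the 1.47-fold of CTNNB1. CTNNB1, its relative JUP, CTNNA1 and CDH2 were thus higher and CDH1 lower on the TGF-β array.

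**Figure D4:**
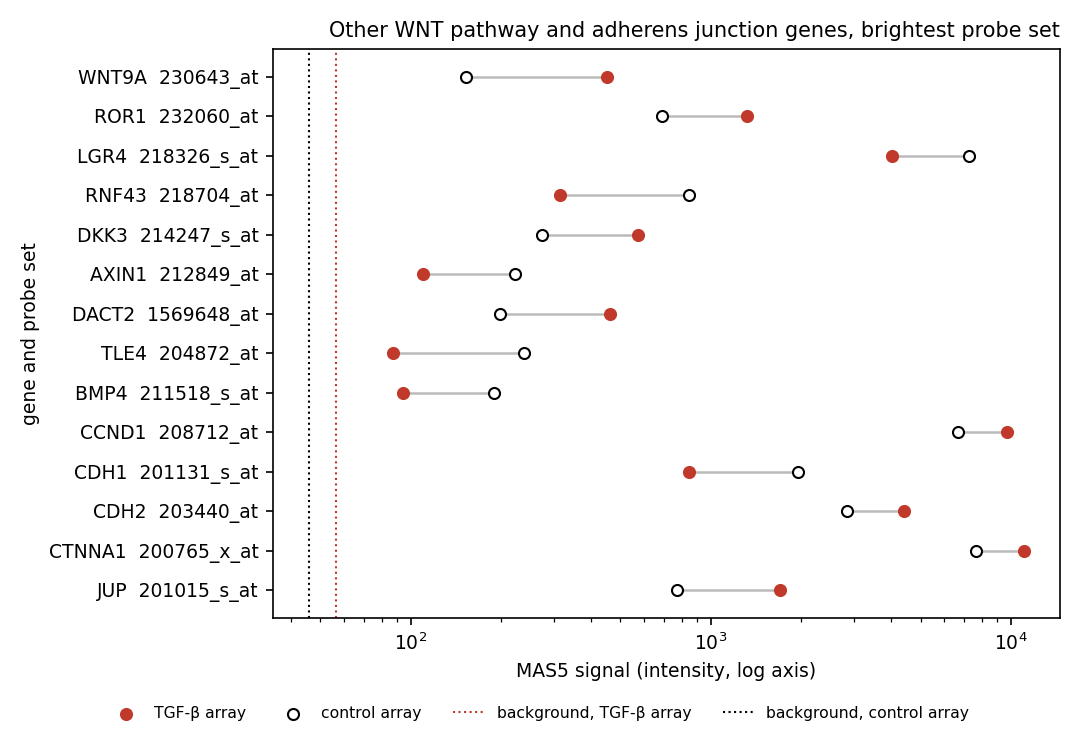
Signals of the brightest probe set of 14 genes of the WNT pathway and of adherens junctions, as MAS5 intensities on a log axis, with the TGF-β array as red points, the control array as open points and dotted lines at the background levels. RNF43, LGR4, AXIN1, TLE4, BMP4 and CDH1 lie lower on the TGF-β array, and WNT9A, ROR1, DKK3, DACT2, CCND1, CDH2, CTNNA1 and JUP lie higher.

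The values of the 10 genes were recomputed with other filters, floors, scalings and choices of probe set. CTNNB1 was higher in all settings, with log2 fold changes between 0.51 and 0.79, and AXIN2 was lower in all settings, between -0.61 and -0.56. FZD7 lay between -0.89 and -0.68, FZD2 between -0.48 and -0.24, DKK1 between -0.38 and -0.26 and WNT5A between -0.40 and -0.26. WNT5B stayed past 2-fold in each of the 9 settings that gave it a value, with log2 values between 1.27 and 5.80. All of these rest on the same probe set, with its control signal at background, so they are no independent check of the call. The stricter filter gave WNT5B no value. Nor did the setting that used only probe sets free of the shared-probe mark, so the call was not tested there. WNT7B lay between 0.12 and 1.50 and passed 2-fold in 2 of 11 settings, those that took its dimmer probe set. No setting turned the direction of any of these 8 genes.

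**Figure D5:**
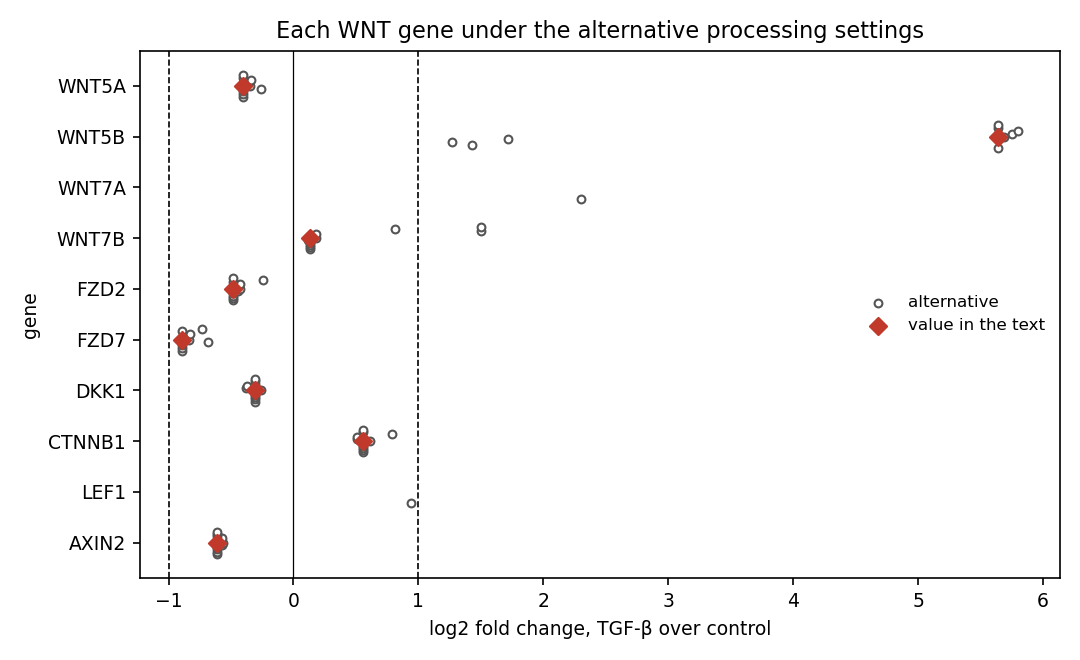
Log2 fold change, TGF-β over control, of each of the 10 WNT genes as given in the text (red diamonds) and under the alternative settings (open circles), with dashed lines at 2-fold. WNT7A and LEF1 have a value only without the filter on dim signals, WNT5B spreads between 1.27 and 5.80, and the 7 other genes keep their side of 0.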

How the data were processed

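Gene expression of A549 cells was measured on 1 array after TGF-β and on 1 array without it. The authors deposited 1 linear intensity for each probe set, computed with MAS5 according to the submitters' processing notes, and its version and settings are not given in the sources. Symbols came from the platform annotation and were updated through RefSeq gene identifiers, leaving out probe sets that carried several symbols or none. The files name no genome build, so coordinates are given only for RefSeq promoters.

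The deposited intensities were used without further scaling. Folds, log2 values and counts were computed with Python 3.11.15, numpy 2.4.6, pandas 2.3.3 and statsmodels 0.14.6, and plots drawn with matplotlib 3.10.9. The spread beside a change was taken over probe sets, not replicates, as 1.4826 times the median absolute deviation of log2 ratios among 500 kept probe sets of closest brightness. Medians of the lists did not move at 2 decimals when genes with a signal at background were set to their bound.

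The genes and lists were chosen with earlier results of these data known. Every probe set of the 10 genes is named; of a list, the 3 largest rises and 3 largest falls past 2-fold at most were to be named, or the largest change where none reached it, and relatives of the ligands and receptors for their level. Other genes named were chosen after their values were seen. List genes without a probe set of that symbol, among them WNT3, WNT3A and TCF7, were not analysed here. Simulated data with known changes were used to test the calls. The planted changes were well past 2-fold, with less noise than the spread of dim signals here. The simulation therefore does not bear on dim genes or on calls near 2-fold. The alternatives were to leave out the filter or move it to the 75 percentile, floors at background and at the array median, an offset of 50, scaling to equal medians, quantile normalization, loess (span 0.3), and 3 other choices of probe set per gene.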

Additional observations from a re-analysis of the deposited data

How the results depend on the processing

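The alternatives bear on processing and say nothing of the variation between cultures. No paired analysis was possible because each condition had 1 array. Of the 10 WNT genes 1 was called higher and 0 lower. Higher calls became 2 without the filter, where WNT7A joined with both signals at background. They were also 2 by the probe set of largest change, where WNT7B joined. They became 0 with the filter at the 75 percentile, which left 5 of the genes. The count stayed at 1 when only probe sets free of the shared-probe mark were read, but the gene changed. There WNT5B had no value, and the call was WNT7B, at a log2 value of 1.50. The pathway calls, 7 higher and 5 lower, became 20 higher and 14 lower of 139 genes when no filter was set, and 3 higher and 1 lower under the stricter filter. Lower pathway calls were 2 with the offset of 50, with equal medians and with loess, and 3 with quantile normalization. AXIN1 was lost with the offset, equal medians and loess, BMP4 also with quantile normalization, and NOTUM in these 4 and with the background floor; DKK3 (0.94) and NFATC2 (0.76) fell under 2-fold with the offset. RNF43, TLE4, WNT9A, DACT2, RHOU, DAAM1, CDH1 and JUP stayed past 2-fold in each alternative that gave a value, and no direction turned. Over all genes, 487 higher and 366 lower calls became 2110 higher and 2395 lower when no filter was set, 197 higher and 63 lower under the stricter filter, and 295 higher and 134 lower after the offset. The background floor gave 204 lower calls and the probe set of largest change 596. By their construction the filters, floors and offset bear on dim signals, and what caused the shifts under scaling was not tested. Signal over background limits WNT5B, WNT7A and LEF1 most. The WNT5B log2 value was 1.43 with the background floor, 1.27 with the median floor and 1.72 with the offset, WNT7B was 0.81 by the median over its probe sets, and LEF1 was 0.94 without the filter.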

Other observations

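CAMK2D, a calcium-dependent kinase of the calcium branch, was lower with TGF-β in all 4 of its probe sets above background. The brightest read 1007 with TGF-β and 1746 in the control, 1.73-fold lower. RSPO3, an R-spondin that strengthens WNT signals by binding LGR receptors, read 24520 with TGF-β and 21861 in the control, 1.12-fold higher. TLE1, a corepressor related to TLE4, read 2494 with TGF-β and 1545 in the control, 1.61-fold higher, so these relatives lay on opposite sides of 0. These genes were chosen after their values were seen, each rests on 1 array per condition, and none passed 2-fold.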
